A study of Rattus norvegicus with 16 samples.

Results

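Cyp2c7 (NM_017158) and 5 related rat liver genes, Cyp2c11 (NM_019184), Cyp2c12 (NM_031572), Cyp2c13 (NM_138514), Cyp2c22 (NM_138512) and Cyp2c23 (NM_031839), were examined in the livers of male pups whose dams had been given chemical mixtures. They were matched by RefSeq accession to 8 of 30367 array probes. Cyp2c7 had 3 probes and each of the others had 1. All 6 genes passed the filter on dim probes and were among the 13146 transcripts tested. Cyp2c7 had been picked from these same arrays for a rise at the higher dose of the mixture only, so its differences between groups are given as a description without a test. The other 5 had been listed with it as genes patterned by growth hormone, and their differences were tested.

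The pups were Sprague-Dawley males, examined at 21 days of age. Their dams were dosed through gestation and lactation, and the pups stayed with their own mothers. The 4 groups were M, given methylmercury, polychlorinated biphenyls and organochlorine pesticides together at 1.0 mg/kg/day; 0.5M, given the same mixture at 0.5 mg/kg/day; AhR, given compounds that activate the aryl hydrocarbon receptor, mixed to 1.8 ng/kg/day of dioxin toxic equivalents; and C, given the corn oil vehicle. For each array the liver RNA of 2 randomly paired pups was combined, so that 8 pups of each group filled 4 arrays, 16 in all. Liver RNA carried Cy5 and a universal rat reference RNA, made from 14 cell lines per the labels, carried Cy3, with no dyes swapped. Values are log2 ratios of liver to that reference, so that a difference of 1 is a doubling. The ratio of 1 gene cannot be set against that of another as a level.

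The Cyp2c genes encode microsomal cytochromes P450 that oxidise steroids, retinoids, fatty acids and drugs. In adult rats the pituitary releases growth hormone in pulses in males and more evenly in females, and the liver reads this pattern through STAT5b and other factors. Cyp2c11 and Cyp2c13 are the classical male-specific forms of adult liver and hydroxylate testosterone. Cyp2c12 is the classical female-specific form and acts on steroid sulfates. Cyp2c7 is female-biased in adult liver, and Cyp2c7 and Cyp2c22 are known to oxidise retinoic acid. Cyp2c23 is an arachidonic acid epoxygenase best known from kidney. The pups were not yet adult, so the male forms are at the stage before their rise at puberty.

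All 6 genes lie on chromosome 1. Among the 11 protein-coding genes with Cyp2c names in the RefSeq table of the GRCr8 assembly, the order along the chromosome is Cyp2c11, Cyp2c24, Cyp2c55, Cyp2c66, Cyp2c6v1, Cyp2c7, Cyp2c7l1, Cyp2c12, Cyp2c13, Cyp2c22 and Cyp2c23. No other protein-coding gene lies between Cyp2c6v1 and Cyp2c7, or between Cyp2c12, Cyp2c13 and Cyp2c22. Cyp2c23 follows after 51 other protein-coding genes. The letters of the array probes are not in the files used here, so the pairing of a Cyp2c7 probe with its near copy Cyp2c7l1, to which 0 probes were matched, was not tested.

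The 250 bases before the annotated start are shown for the 4 sex-patterned genes, because Cyp2c11 and Cyp2c13 varied together between arrays while Cyp2c7 and Cyp2c12, both female-biased in adults, did so less when all 16 arrays were used. The sequences are RefSeq's, on GRCr8, written 5′ to 3′ in the direction of the gene. Cyp2c7 is chr1:247966144-247966393 and Cyp2c11 is chr1:246174966-246175215, both on the plus strand, and Cyp2c12 is chr1:248677035-248677284 and Cyp2c13 is chr1:248787189-248787438, both on the minus strand. Capitals mark matches on either strand to ATTGAT, the core bound by HNF6, to TATAAA, the TATA box, and to AGGTCA, the core motif of nuclear receptors.
Cyp2c7: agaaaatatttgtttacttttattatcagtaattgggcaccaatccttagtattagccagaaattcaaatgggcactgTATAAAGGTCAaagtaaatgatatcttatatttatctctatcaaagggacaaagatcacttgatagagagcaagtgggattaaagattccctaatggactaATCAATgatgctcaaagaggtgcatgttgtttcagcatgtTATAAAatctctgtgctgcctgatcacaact
Cyp2c11: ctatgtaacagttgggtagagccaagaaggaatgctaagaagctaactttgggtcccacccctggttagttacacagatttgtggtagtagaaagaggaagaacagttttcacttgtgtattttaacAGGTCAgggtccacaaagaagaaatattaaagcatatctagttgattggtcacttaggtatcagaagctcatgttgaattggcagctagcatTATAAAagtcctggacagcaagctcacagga
Cyp2c12: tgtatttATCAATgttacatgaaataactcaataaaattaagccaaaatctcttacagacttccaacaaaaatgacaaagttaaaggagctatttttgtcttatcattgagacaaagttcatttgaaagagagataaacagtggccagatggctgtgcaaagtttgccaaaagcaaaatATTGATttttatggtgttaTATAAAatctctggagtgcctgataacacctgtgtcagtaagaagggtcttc
Cyp2c13: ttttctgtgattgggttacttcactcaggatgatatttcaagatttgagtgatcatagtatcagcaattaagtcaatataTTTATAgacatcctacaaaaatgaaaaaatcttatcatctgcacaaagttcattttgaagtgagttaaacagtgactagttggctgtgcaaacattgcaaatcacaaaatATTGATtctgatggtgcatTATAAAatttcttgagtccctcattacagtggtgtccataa

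With the base just before the start counted as -1, ATTGAT began at -71 on the minus strand in Cyp2c7. It began at -71 on the plus strand and at -243 on the minus strand in Cyp2c12, and at -60 on the plus strand in Cyp2c13. It was not in the windows of Cyp2c11, Cyp2c22 and Cyp2c23, and 7.1% of 33469 RefSeq promoter windows of the same length hold it. TATAAA began at -31 in Cyp2c7 and in Cyp2c11, at -52 in Cyp2c12 and at -41 in Cyp2c13, and 12.9% of all windows hold it. It also began at -170 on the minus strand in Cyp2c13 (TTTATA as written) and at -197 in Cyp2c22, and was not in the window of Cyp2c23. Cyp2c7 has a further TATAAA at -172 whose last base is the first base of AGGTCA at -167. AGGTCA was also found in Cyp2c11, at -123, and in Cyp2c22, at -30 on the minus strand, and 14.1% of all windows hold it. The STAT5 motif TTCNNNGAA, held by 7.67% of all windows, and CAAAGTCCA, an HNF4-type site held by 0.338%, were in 0 of the 6 windows. These matches describe letters and are no evidence of binding.

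The arrays differed in ways that bear on these genes. On slide 1, which held replicates 1 and 2 of each group, 7082 to 13824 probes stood well above background in Cy5, against 13006 to 15686 on slide 2, which held replicates 3 and 4. The slide is therefore a term of the model, and 1079 transcripts (8.21%) differed by slide. Skeletal muscle markers were raised in M 2 and 0.5M 4, pancreatic markers in M 1 and AhR 2, and fat markers in C 2, and results were also computed without these 5 arrays. The summed Cy5 signal of 15 muscle probes was 44.8 to 26824 in M, 75.5 to 90299 in 0.5M, 53.0 to 380.5 in AhR and 90.0 to 508.8 in C. All 8 hepatocyte markers stood well above background on each array. As these are whole livers, fewer cells of a type and less RNA per cell cannot be told apart. The labels do not give litters, and as the dams were the treated animals, any litter shared between arrays would make the p-values too small.

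Cyp2c7 separated the M livers from all others. The log2 ratio of its brightest probe was -2.10, -2.83, -2.37 and -3.03 in the 4 M arrays, -4.27, -3.88, -4.06 and -4.50 in the 0.5M arrays, -3.99, -4.43, -4.80 and -4.58 in the AhR arrays, and -4.20, -4.48, -4.26 and -5.04 in the C arrays. The lowest M array stood above the highest array of each other group, while 0.5M, AhR and C overlapped. The group means were -2.58 ± 0.43 in M, -4.18 ± 0.26 in 0.5M, -4.45 ± 0.35 in AhR and -4.50 ± 0.38 in C (SD, n = 4 each). In order of level, M was followed by 0.5M, AhR and C, and the arrays of these last 3 groups overlapped. The AhR and C means lay so close that their order turned under some alternatives.

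The M mean lay 3.77-fold above the C mean, a log2 difference of 1.91 ± 0.20 (SE, n = 4 each). M lay 3.03-fold above 0.5M (log2 difference 1.60) and 3.65-fold above AhR (1.87). The 0.5M mean exceeded the C mean by 0.32 ± 0.20, with 2 of 4 0.5M arrays above all C arrays. The AhR mean exceeded the C mean by 0.05 ± 0.20. The 0.5M difference from C was 16.6% of the M difference on the log2 scale, and the 0.5M mean lay 0.64 below the midpoint of M and C (log2 difference from the midpoint -0.64). Over all transcripts 0.319% were called in M against C and 4.17% had groups that did not overlap, but the choice of Cyp2c7 used this contrast and nothing is read from its place among them.

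The other probes of Cyp2c7 had the same order of groups. Probe A_64_P000452 gave -2.35, -3.15, -2.39 and -3.00 in M, -4.43, -4.06, -3.90 and -4.68 in 0.5M, -4.24, -4.76, -4.66 and -4.62 in AhR, and -4.13, -4.74, -4.41 and -5.03 in C. Probe A_64_P066206, with 1 spot per array, gave -2.23, -3.44, -2.36 and -2.80 in M, -5.15, -4.13, -4.50 and -5.35 in 0.5M, -4.25, -5.53, -5.83 and -5.66 in AhR, and -4.86, -5.83, -5.25 and -6.07 in C. On each probe the M arrays stood above all 12 others. The probes differed in size. The log2 difference of M from C was 1.86 on A_64_P000452 (3.62-fold) and 2.79 on A_64_P066206 (6.94-fold), against 1.91 on the brightest, A_43_P13939. The difference of 0.5M from C was 0.31 on A_64_P000452 and 0.72 on A_64_P066206, with 2 of 4 0.5M arrays above all C arrays on both.

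**Figure D1:**
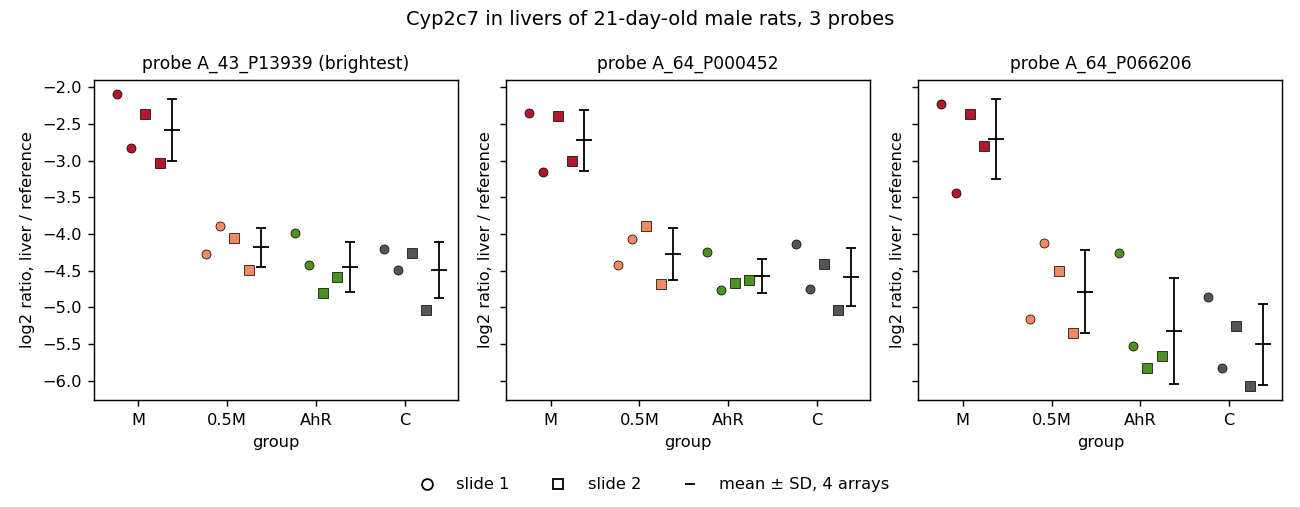
Log2 ratio of liver to reference for the 3 Cyp2c7 probes (1 panel each), with groups M, 0.5M, AhR and C on the horizontal axis, 1 point per array (circles slide 1, squares slide 2) and bars for the mean ± SD of 4 arrays. On each probe the 4 M arrays stand above the 12 others, and the 0.5M, AhR and C arrays overlap.

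Cyp2c7 was well above background on all 16 arrays on each probe. Probe A_64_P066206 was the dimmest, with background-subtracted Cy5 signals of 29 to 2286.5, among them 29 in C 2 and 32 in AhR 1. On the brightest probe, to which the following values belong, these signals were 390 to 10513. Within slide 1 the log2 difference of M from C was 1.88 and within slide 2 it was 1.95. It was 1.93 without the 5 arrays that held other tissue, and 1.77 to 2.06 when each array was left out in turn. M 3 and M 4, in which neither muscle nor pancreas markers were raised, read -2.37 and -3.03, above all C arrays. The slide difference of Cyp2c7 (slide 2 minus slide 1, -0.31) did not pass the test (adjusted p = 0.192 by limma).

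For Cyp2c11, Cyp2c12, Cyp2c13, Cyp2c22 and Cyp2c23 no difference between groups passed the test. In limma with Benjamini-Hochberg adjustment over all 13146 transcripts, 30 tests (5 genes in 6 comparisons) gave 0 calls, and adjusted p ranged from 0.254 to 1. At an unadjusted p under 0.05 there were 4, which involved Cyp2c22 and Cyp2c23, and 7.68% of all tests over the 6 comparisons had such a p. The background is low. In M against C, 0.319% of all transcripts were called, 0.0152% in 0.5M against C and 0.00761% in AhR against C. In M against 0.5M it was 0.0152%, in M against AhR 0.259%, and in 0.5M against AhR 0.0228%, so that 0 of 5 is near it. The 3 comparisons with C share the C arrays. For none of these 5 genes, in any comparison, did all arrays of 1 group lie outside the range of the other. The share of all transcripts with groups apart was 4.17% in M against C, 3.04% in 0.5M against C, 1.95% in AhR against C, 2.8% in M against 0.5M, 3.99% in M against AhR and 5.01% in 0.5M against AhR.

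Cyp2c11 overlapped in all groups. Its log2 ratios were -4.60, -5.33, -5.70 and -6.12 in M, -5.37, -5.12, -5.75 and -5.96 in 0.5M, -4.79, -5.10, -5.49 and -5.87 in AhR, and -4.85, -5.21, -5.23 and -5.68 in C. The M arrays held both the highest and the lowest of all 16 values. The M mean was -5.44 ± 0.64 and the C mean -5.24 ± 0.34 (SD, n = 4 each), a log2 difference of -0.19 with a 95% confidence interval of -0.56 to 0.17 (adjusted p = 0.762). The difference from C was -0.31 in 0.5M (adjusted p = 0.754) and -0.07 in AhR (adjusted p = 1, both by limma). Within slides the M difference was 0.07 on slide 1 and -0.45 on slide 2.

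Cyp2c13, the other male form, showed the same picture. It read -4.56, -5.68, -6.22 and -6.41 in M, -5.76, -5.23, -6.02 and -6.36 in 0.5M, -4.69, -5.60, -5.58 and -5.89 in AhR, and -5.04, -5.53, -5.47 and -5.83 in C. Here too the M arrays held the highest and the lowest value. The mean was -5.72 ± 0.83 in M and -5.47 ± 0.32 in C (SD, n = 4 each), a log2 difference of -0.25 (95% confidence interval -0.78 to 0.28, adjusted p = 0.789). The 0.5M livers differed from C by -0.38 (adjusted p = 0.796) and the AhR livers by 0.02 (adjusted p = 1, both by limma). On slide 1 the M difference was 0.17 and on slide 2 it was -0.67.

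Both male forms differed by slide. Cyp2c11 averaged -5.72 on slide 2 and -5.05 on slide 1, a difference of -0.68 ± 0.12 (SE, n = 8 arrays per slide, adjusted p = 0.00824 by limma). Cyp2c13 averaged -5.97 on slide 2 and -5.26 on slide 1, a difference of -0.71 ± 0.18 (adjusted p = 0.0255 by limma). The slides held different pups, so slide and pups cannot be told apart. On slide 1, in each group, the array with fewer probes well above background (M 1, 0.5M 2, AhR 1 and C 1) had the higher ratio of both genes. Those arrays had 7082, 9206, 8828 and 10056 such probes, against 11054, 12881, 13824 and 11988 on their partners. The same arrays were the highest of their groups on the brightest probe of Cyp2c7, at -2.10, -3.88, -3.99 and -4.20. Background-subtracted Cy5 was 99.5 to 1100.5 for Cyp2c11 and 67.5 to 756.75 for Cyp2c13, lowest in M 1 for both. The part of probe numbers and dim signal in these values was not tested.

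Cyp2c12, the female form, varied more within groups than nearly all other transcripts. Its ratios were -0.12, 0.88, 0.52 and -0.55 in M, -0.65, -0.20, 0.58 and 0.14 in 0.5M, -0.51, -0.87, 0.82 and -0.51 in AhR, and -1.01, -0.41, 0.98 and 0.07 in C. Its highest value was in a C array, and its lowest was too. The residual SD after removal of group and slide was 0.62, larger than that of 99.3% of transcripts, whose median was 0.149. The M mean of 0.18 ± 0.64 and the C mean of -0.09 ± 0.84 (SD, n = 4 each) differed by 0.28, with an interval of -0.52 to 1.07 (adjusted p = 0.853 by limma). At that spread a doubling in M could not be told from no change. The difference from C was 0.06 in 0.5M (adjusted p = 0.981) and -0.18 in AhR (adjusted p = 1, both by limma). The M difference was 1.09 on slide 1 and -0.54 on slide 2, and neither passed the test. On slide 2 replicate 3 was above replicate 4 in all 4 groups.

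Cyp2c22, a retinoic acid hydroxylase of rat liver, had a residual SD of 0.22, larger than that of 82.5% of transcripts. It read -0.47, -0.27, -1.04 and -1.0 in M, -0.54, -0.31, -0.76 and -0.25 in 0.5M, -0.38, -0.09, -0.44 and -0.18 in AhR, and -0.29, -0.58, -0.60 and -0.58 in C. The low M values were the 2 arrays of slide 2. The mean was -0.69 ± 0.38 in M and -0.51 ± 0.15 in C (SD, n = 4 each), a log2 difference of -0.18 (95% confidence interval -0.48 to 0.12, adjusted p = 0.722 by limma). The difference from C was 0.05 in 0.5M (adjusted p = 0.965) and 0.24 in AhR (adjusted p = 1, both by limma). M lay below AhR by 0.42 (log2 difference -0.42, unadjusted p = 0.00889 by limma, adjusted p = 0.316). Background-subtracted Cy5 of Cyp2c22 was only 22.25 to 595.5, lowest in M 1, and the part of dim signal in its values was not tested.

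Cyp2c23, the arachidonic acid epoxygenase, had the smallest residual SD of the 6, 0.13. It read -0.71, -0.26, -0.35 and -0.41 in M, -0.67, -0.71, -0.59 and -0.70 in 0.5M, -0.66, -0.79, -0.76 and -0.78 in AhR, and -0.74, -0.56, -0.65 and -0.84 in C. M 2, M 3 and M 4 stood above all arrays of the other groups, and M 1, the array with the fewest probes above background, lay among them. The M mean was -0.43 ± 0.20 and the C mean -0.70 ± 0.12 (SD, n = 4 each), a log2 difference of 0.27 (95% confidence interval 0.07 to 0.47). The unadjusted p of 0.0122 by limma became 0.31 after adjustment. M exceeded AhR by 0.32 (adjusted p = 0.254) and 0.5M by 0.24 (adjusted p = 0.657, both by limma). The M difference from C was 0.20 to 0.37 when each array was left out in turn, and -0.07 with arrays centred on their median in place of loess. The difference from C was 0.03 in 0.5M (adjusted p = 0.967) and -0.05 in AhR (adjusted p = 1, both by limma).

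**Figure D2:**
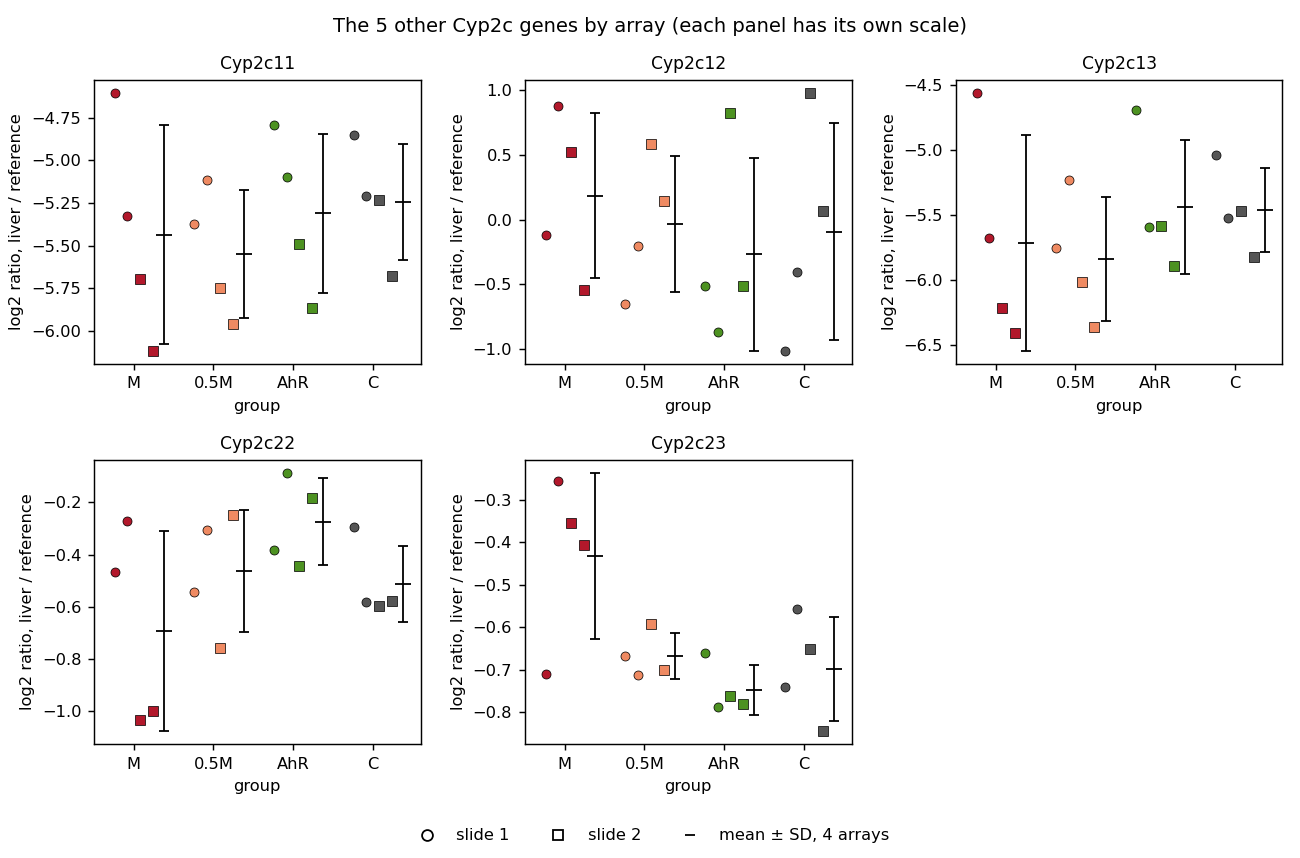
Log2 ratio of liver to reference for Cyp2c11, Cyp2c12, Cyp2c13, Cyp2c22 and Cyp2c23 (1 panel each, with its own scale), with groups M, 0.5M, AhR and C on the horizontal axis, 1 point per array (circles slide 1, squares slide 2) and bars for the mean ± SD of 4 arrays. The groups overlap in every panel, and for Cyp2c23 M 2, M 3 and M 4 stand above the other 13 arrays.

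**Figure D3:**
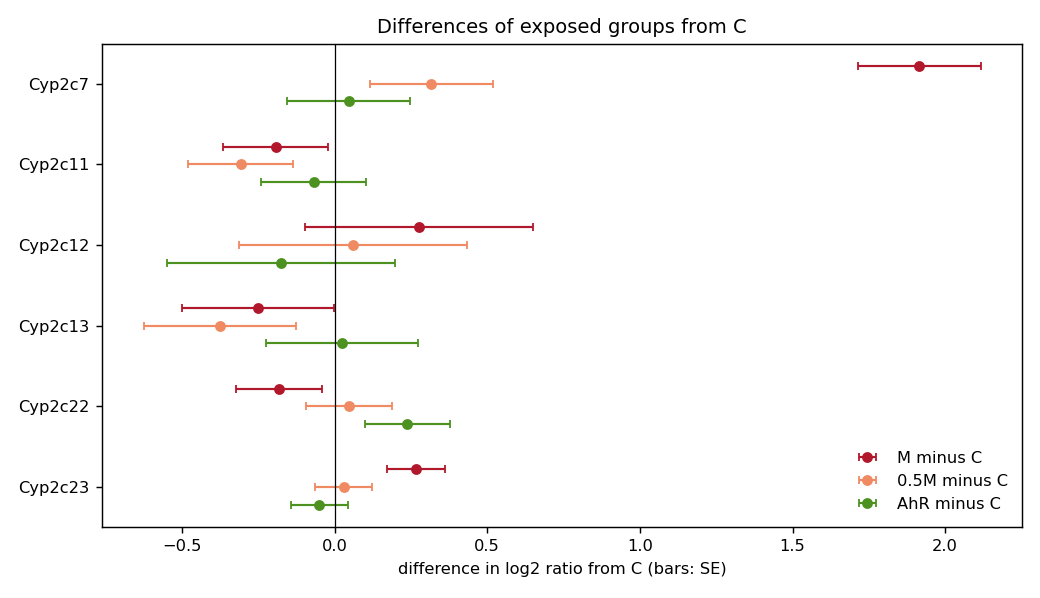
Differences in log2 ratio of M, 0.5M and AhR from C for the 6 genes, as points with bars of 1 SE on each side from the fit over all 16 arrays. The M difference of Cyp2c7, 1.91, stands apart from the rest, which lie between -0.38 and 0.32, and the bars of Cyp2c12 are the longest.

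Between arrays, the male forms followed each other, though not only each other. After removal of group and slide means, Cyp2c11 and Cyp2c13 correlated at Pearson r = 0.91 and Spearman rho = 0.89 over the 16 arrays. With only the slide removed r was 0.92, and 0.89 without the 2 arrays farthest from the median of Cyp2c13. Under 6 other settings of processing the first value was 0.83 to 0.91. With group and slide removed, Cyp2c11 and the female form Cyp2c12 had r = 0.42, and Cyp2c12 and Cyp2c13 had 0.30. Without the 5 arrays that held other tissue these were 0.92 and 0.77, against 0.89 for Cyp2c11 and Cyp2c13. These correlations are descriptions, and all these genes share each array's RNA pool, labelling and number of bright probes. M 1, 0.5M 2, AhR 1 and C 1 were the highest arrays of their groups for Cyp2c7, Cyp2c11 and Cyp2c13 alike. The part of these arrays in the correlations was not tested. Cyp2c7 correlated with Cyp2c11 (r = 0.76) and Cyp2c13 (r = 0.66) after group and slide were removed, and less with Cyp2c12 (r = 0.12). Under the 6 other settings the last value was 0.12 to 0.52, the highest without the 5 arrays that held other tissue. Cyp2c7 and Cyp2c23 had r = 0.68 with the slide removed and -0.09 with group and slide removed.

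By the rule of highest Pearson r after removal of slide means, over all tested transcripts with a symbol, Cyp2c12 was most like Sult2a1, a hydroxysteroid sulfotransferase that is female-biased in rat liver (r = 0.90, rho = 0.87, 16 arrays). Without the 2 arrays farthest from the median of Sult2a1 r was 0.83, and with the group removed too it was 0.91. Adam15, a cell surface metalloprotease (r = 0.87), and Mtg2 (0.85) followed. Sult2a1 read -1.37, -0.32, -1.34 and -1.96 in M, -1.47, -1.37, -1.10 and -1.10 in 0.5M, -1.41, -2.11, -0.63 and -2.32 in AhR, and -1.98, -1.49, -1.23 and -1.41 in C. It too overlapped in all groups (M minus C, 0.27, adjusted p = 0.839 by limma). Within AhR, replicate 3 was the highest for both genes.

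Cyp2c13 was most like the apolipoprotein Apoc3 (r = 0.93, rho = 0.92), Obp3 (r = 0.92, rho = 0.91) and Cyp2c11 (r = 0.92, rho = 0.93). With the group removed too, the nearest were Rup2, Mup4 and Obp3 (r = 0.97 each). Under 6 other settings of processing that value was 0.63 to 0.96 for Mup4, which was not well above background in M 1, and 0.84 to 0.96 for Obp3. Mup4 was dim throughout, with background-subtracted Cy5 from 17 in C 4 to 143.25 in C 3. The part of dim signal in its correlation was not tested. Mup4 and Obp3 encode lipocalins that bind pheromones and odorants. Obp3 read -0.27, -1.41, -1.58 and -2.02 in M, -1.71, -0.82, -1.47 and -1.70 in 0.5M, -0.53, -1.79, -1.18 and -1.50 in AhR, and -0.83, -1.54, -1.24 and -1.45 in C. The high Obp3 arrays M 1, AhR 1, 0.5M 2 and C 1 are those of slide 1 that were high for Cyp2c11 and Cyp2c13. Cyp2c11 was most like Cyp2c13, followed by the phospholipase Plaat3 (r = 0.89) and the amino acid transporter Slc38a3 (r = 0.86). With the group removed too, F2, prothrombin, came first (r = 0.92).

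**Figure D4:**
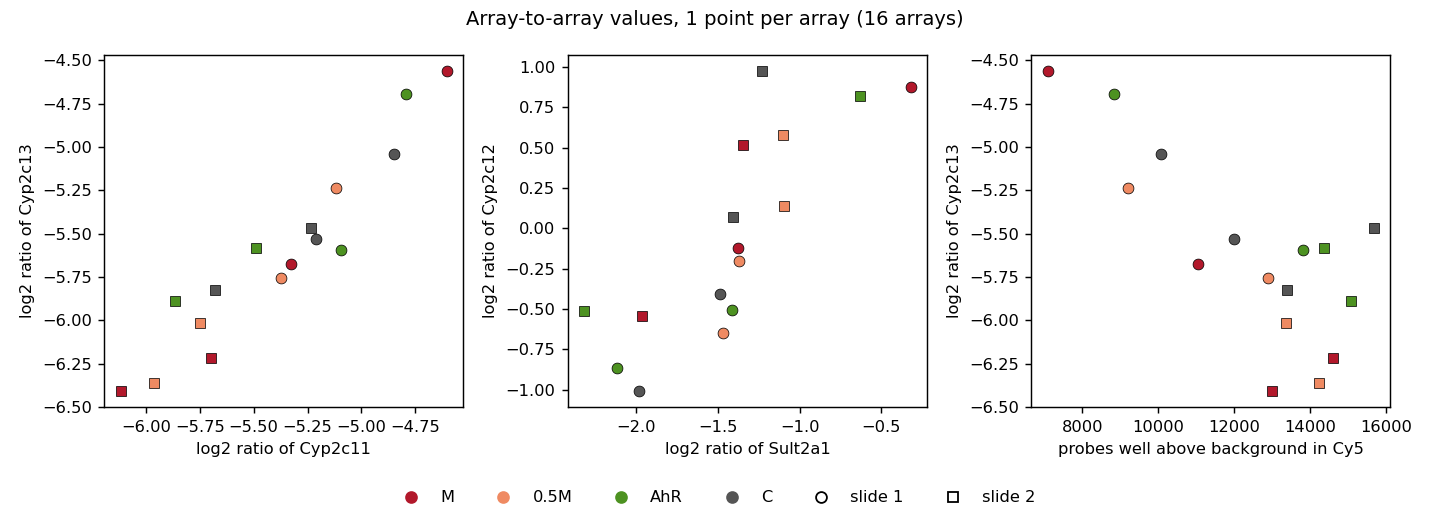
Array-to-array values with 1 point per array, coloured by group and shaped by slide. The panels set the log2 ratios of Cyp2c13 against Cyp2c11, those of Cyp2c12 against Sult2a1, and that of Cyp2c13 against the number of probes well above background in Cy5; the 4 highest Cyp2c13 values belong to slide 1 arrays with 7082 to 10056 such probes.

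For Cyp2c7 the nearest genes depended on whether the group difference was kept. With only the slide removed they were Ceacam4, a cell adhesion molecule that was not well above background in AhR 1 and C 1 (r = 0.94), the glutathione transferase Gsta4 (0.93) and the apolipoprotein Apoa2 (0.90), over 16 arrays. Gsta6 (0.89), the sulfotransferase Sult1b1 (0.88), Cyp1a2, a P450 under the aryl hydrocarbon receptor (0.87), Cyp2c6v1 (0.87) and Aldh1a1 (0.86) came next, and rho was 0.72 to 0.84 over these 8. All 8 had a higher mean in M than in C (log2 differences 0.39 to 2.40). Not every one rose in M only. In at least Ceacam4, Gsta4, Cyp2c6v1 and Aldh1a1 the 0.5M mean also exceeded the C mean, as it did for Cyp2c7. In Ceacam4 all AhR arrays stood above all C arrays too. With group and slide removed the nearest genes were the organic anion transporter Slco1a4 (r = 0.90), Tmem170a (0.87) and Rpe (0.86). Ghr, the growth hormone receptor, then had rank 6 (0.84, rho = 0.83). With only the slide removed Ghr had r = 0.30, and 0.11 without the 2 arrays farthest from its median. The difference of Ghr between M and C was 0.09 (adjusted p = 0.912 by limma).

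Cyp2c6v1, the direct neighbour of Cyp2c7 on chromosome 1, was the only one of 10 other Cyp2c names listed that matched a probe. It read 1.14, 0.74, 0.99 and 0.65 in M, 0.25, 0.03, 0.20 and -0.42 in 0.5M, -1.35, -0.82, -0.94 and -1.27 in AhR, and -0.99, -1.23, -0.59 and -1.11 in C. The M arrays stood above all others, and the 0.5M arrays stood between M and the overlapping AhR and C arrays. Cyp2c6v1 rose by 1.86 ± 0.17 in M against C (SE, n = 4 each, adjusted p = 3.41e-05 by limma) and by 1.97 against AhR (adjusted p = 1.91e-05). In 0.5M it exceeded C by 1.00 (adjusted p = 0.151, 4 of 4 arrays above all C arrays) and rose by 1.11 against AhR (adjusted p = 0.0446, both by limma). For Cyp2c7 the 0.5M excess over C was 0.32 and the M excess 1.91. The difference between Cyp2c6v1 and Cyp2c7 in dose pattern was not tested. The M call of Cyp2c6v1 was lost within slide 2 and with arrays centred on their median, while its log2 difference was 1.67 (adjusted p = 0.0946) and 1.52 (adjusted p = 0.997, both by limma).

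Of the other female-biased genes of rat liver, 8 of those listed were tested, and 0 were called in any comparison by limma (10 of 48 tests, 20.8%, at an unadjusted p under 0.05, against 7.68% over all transcripts). These 48 tests are 8 genes in 6 comparisons that share arrays, so they are not independent, and the same holds for the lists below. In M against C 5 genes were higher and 3 lower, with a median log2 difference of 0.18, against -0.001 over all transcripts. Cyp2a1, a steroid hydroxylase more abundant in female liver, had the smallest p. It exceeded C by 0.73 ± 0.16 in M (adjusted p = 0.079, 4 of 4 arrays above all C arrays) and by 0.01 in 0.5M (adjusted p = 0.998, both by limma). Sult2a6, a hydroxysteroid sulfotransferase, went the other way, with all 4 M arrays below all C arrays (-0.23, adjusted p = 0.324 by limma). Cyp2a1 and Sult2a6 each had an unadjusted p under 0.05 by limma in every comparison of M, in opposite directions. Srd5a1, a steroid reductase, differed in M by -0.08 (adjusted p = 0.916 by limma), and Prlr, the prolactin receptor, by -0.04 (adjusted p = 0.924 by limma). The smallest p was that of Sult2a6 in 0.5M against C (0.08, adjusted p = 0.869) and of the alcohol dehydrogenase Adh4 in AhR against C (0.39, adjusted p = 1, both by limma).

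Of the other male-biased genes, 9 were tested and 0 were called in any comparison by limma (4 of 54 tests, 7.41%, at an unadjusted p under 0.05, against 7.68% over all). In M against C 6 were higher and 3 lower, with a median of 0.18. Bcl6, a repressor more abundant in male liver, read -1.33, -0.11, -0.12 and -0.02 in M, -1.31, -1.64, -1.15 and -0.66 in 0.5M, -1.31, -1.51, -0.93 and -1.06 in AhR, and -0.57, -0.75, -1.57 and -1.77 in C. Its M arrays 2 to 4 stood above all C arrays, and in M 1 it was not well above background, so that -1.33 is not a measured level (M minus C, 0.77, adjusted p = 0.392 by limma). Cyp2a2, a steroid hydroxylase, differed by 0.38 (adjusted p = 0.501) and Cyp3a2, a male-specific P450, by -0.13 (adjusted p = 0.801, both by limma). Cyp3a18, another P450, had the smallest p in 0.5M against C (-0.20, adjusted p = 0.885) and in AhR against C (-0.37, adjusted p = 1, both by limma).

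Of 19 tested genes of the growth hormone axis and its liver factors, 0 were called in any comparison by limma (10 of 114 tests, 8.77%, at an unadjusted p under 0.05, against 7.68% over all). In M against C 6 were higher and 13 lower, with a median of -0.06. Onecut1, the gene of HNF6, had the smallest p. It read -1.04, -0.80, -1.10 and -1.06 in M, -0.28, -0.03, -0.58 and -0.27 in 0.5M, -0.99, -0.95, -0.32 and -1.33 in AhR, and -0.78, -0.03, -0.60 and 0.27 in C. All 4 M arrays stood below all C arrays (M minus C, -0.71 ± 0.22, adjusted p = 0.233 by limma), and AhR differed from C by -0.61 (adjusted p = 1). Stat5b, which carries the growth hormone signal to these genes, differed in M by -0.04 (adjusted p = 0.908) and Igfals, part of the complex that carries IGF1 in blood, by -0.44 (adjusted p = 0.298, both by limma). In 0.5M against C Igfals had the smallest p (-0.31, adjusted p = 0.751 by limma).

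Among 24 tested genes of retinoid handling, 1 was called by limma, and it rose in M against both C and AhR. Over all transcripts 0.319% were called in M against C and 0.259% in M against AhR. At an unadjusted p under 0.05 by limma the list had 17 of 144 tests (11.8%), against 7.68% over all. Aldh1a1, which oxidises retinal to retinoic acid, read 1.99, 1.52, 1.99 and 1.76 in M, 0.62, 1.25, 1.15 and 0.35 in 0.5M, -0.22, 0.04, 0.91 and 0.65 in AhR, and -0.11, 0.15, 0.59 and -0.73 in C. Every M array stood above every other array. The M difference from C was 1.84 ± 0.28 (SE, n = 4 each, 3.58-fold, adjusted p = 0.00693 by limma), that from AhR was 1.47 (adjusted p = 0.0377), and that from 0.5M was 0.97 (adjusted p = 0.45). The call against C was lost within slide 1 (log2 difference 1.74), within slide 2 (1.94), without the 5 arrays with other tissue (1.82) and with arrays centred on their median (1.55), with adjusted p of 0.0666 or more by limma. In M against C the list's median was 0.03, with 15 higher and 9 lower, and Cyp26a1, the inducible retinoic acid hydroxylase, differed by 0.07 (adjusted p = 0.896 by limma). Rxrb, a retinoid X receptor, had the smallest p in 0.5M against C (-0.27, adjusted p = 0.587), and Bco2, a carotenoid oxygenase, in AhR against C (-0.19, adjusted p = 1, both by limma).

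Among 10 tested genes of arachidonic acid epoxides, 0 were called in any comparison by limma (11 of 60 tests, 18.3%, at an unadjusted p under 0.05, against 7.68% over all). These 60 tests are 10 genes in 6 comparisons that share arrays, so they are not independent. Ephx1, the microsomal epoxide hydrolase, read 0.44, -0.59, 0.48 and 0.65 in M, -1.04, 0.10, 0.43 and -0.43 in 0.5M, -1.08, -1.0, -0.07 and -0.40 in AhR, and -1.23, -1.21, -0.32 and -1.29 in C. In M 3 of 4 arrays stood above all C arrays (M minus C, 1.26 ± 0.27, adjusted p = 0.0633 by limma). Ephx2, the soluble epoxide hydrolase that degrades the products of Cyp2c23, differed by -0.54 (adjusted p = 0.485 by limma). Ephx1 also had the smallest p in 0.5M against C (0.78, adjusted p = 0.655), and Ppara, the fatty acid receptor, in AhR against C (0.37, adjusted p = 1, 4 of 4 arrays above all C arrays, both by limma). The list's median in M against C was -0.03, with 4 higher and 6 lower.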

How the data were processed

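The authors deposited 1 scan file per array, written by Agilent Feature Extraction 10.7.3.1 per the submitters' processing notes and file headers. From each were taken the median intensity of signal and background in both channels, the quality marks (0 or 1) and LogRatio, which is on the log10 scale per the file headers. The authors' deposited value table, on the log2 scale, served as an alternative.

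Intensities were background-corrected with normexp (offset 50) and normalized by loess within arrays in limma 3.58.1 (R 4.3.3), with control spots given no weight and outlier spots left out. Spots of a probe were averaged, and a probe was kept if marked well above background for liver on 4 or more of the 16 arrays. The brightest probe stood for a gene. Symbols came from RefSeq (18004 of 30367 probes). A model with 4 group means and a slide term was fitted to 13146 transcripts, with two-sided tests adjusted by Benjamini-Hochberg within each of 6 comparisons (threshold 0.05). The number of arrays limits the precision (median SE of M minus C, 0.104). No 2 arrays were identical, and replicates are treated as separate pools. Replicate numbers were not taken to pair the samples.

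The genes, lists and tests were chosen with earlier results of these data known. Named genes are, from each list, members past the threshold or else the one with the smallest p in a comparison with C, and, as like patterns, the 8 highest Pearson r for Cyp2c7 and the 3 highest for each other gene. Stat5b, Cyp26a1, Ephx2, Cyp2a2, Cyp3a2, Srd5a1 and Prlr were added for their roles, after their values were seen, as were the patterns with the group removed. Code was tested on simulated data. Alternatives were another background correction, normalization, filter, probe choice, slide term and array set.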

Additional observations from a re-analysis of the deposited data

Results flagged for a closer look

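Of 32 sets of 4 arrays (8 probes in 4 groups), 1 held an array far from the others of its group by Dixon's criterion, and chance flags about 1 in 20. It was Cyp2c22 in C 1, at -0.29, against -0.60 to -0.58 in the other C arrays. The log2 difference of Cyp2c22 between M and C, which did not pass the test, was -0.29 to -0.10 when each array was left out in turn.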

How the results depend on the processing

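The M mean of Cyp2c7 lay above that of each other group under every alternative run. Its AhR and C means changed order (AhR minus C) with median centring (-0.0192), the scanner software's ratios (-0.0109), slide 2 only (-0.0440) and array weights (-0.0386), and the range with each array left out was -0.0948 to 0.19. The log2 difference of M from C was 1.77 to 2.06 with each array left out, and 1.46 to 1.74 against 0.5M and 1.74 to 2.02 against AhR. With arrays centred on their median it was 1.58. On probe A_64_P066206, chosen as an alternative after the data were seen, it was 2.79, and the probe gave 0.72 for 0.5M minus C, 2.08 for M minus 0.5M and 2.61 for M minus AhR. The cause was not tested. For the other 5 genes, M, 0.5M and AhR were set only against C under 31 alternatives. The comparisons among M, 0.5M and AhR were not repeated for them. The 465 tests against C gave 0 calls, with a lowest adjusted p of 0.116 by limma. Of these differences, 35 changed sign, none of them called. With slide 1 only, the sign changed for M minus C of Cyp2c11 (0.0651), Cyp2c13 (0.17) and Cyp2c22 (0.0665), for AhR minus C of Cyp2c11 (0.0853) and Cyp2c12 (0.0201), and for 0.5M minus C of Cyp2c23 (-0.0416). With slide 2 only, it changed for M minus C (-0.54) and 0.5M minus C (-0.16) of Cyp2c12 and for AhR minus C of Cyp2c13 (-0.0903). With median centring, it changed for 0.5M minus C of Cyp2c12 (-0.0141), Cyp2c22 (-0.0359) and Cyp2c23 (-0.0270), for AhR minus C of Cyp2c13 (-0.0480) and for M minus C of Cyp2c23 (-0.0663). With array weights, it changed for 0.5M minus C of Cyp2c12 (-0.0488) and AhR minus C of Cyp2c13 (-0.0351). With the scanner software's ratios, it changed for 0.5M minus C of Cyp2c22 (-0.0393) and Cyp2c23 (-0.0164). Without the 5 arrays with other tissue, it changed for M minus C of Cyp2c12 (-0.38), 0.5M minus C of Cyp2c22 (-0.11) and AhR minus C of Cyp2c23 (0.0105). With each array left out, ranges that included 0 were, for AhR minus C, -0.18 to 0.0586 for Cyp2c11, -0.46 to 0.10 for Cyp2c12, -0.13 to 0.21 for Cyp2c13 and -0.10 to 0.00152 for Cyp2c23. For 0.5M minus C they were -0.16 to 0.34 for Cyp2c12, -0.0738 to 0.12 for Cyp2c22 and -0.0236 to 0.0808 for Cyp2c23, and for M minus C -0.0895 to 0.65 for Cyp2c12.

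Of the lists, the M call of Cyp2c6v1 was lost (0 calls) with median centring and with slide 2 only, and that of Aldh1a1 (0 calls) with median centring, with slide 1 or slide 2 only and without the 5 arrays with other tissue, with log2 differences of 1.52 to 1.94 in these fits. The female-biased genes had 1 call, Cyp2a1, with array weights, and 0 to 1 with each array left out (1 without M 2, 0.5M 1 or 0.5M 4). The male-biased genes had 1 call, Bcl6, with slide 2 only. The epoxide genes had 0 to 1 calls with each array left out (1, Ephx1, without M 2, 0.5M 2 or 0.5M 4). Over all transcripts the calls of M against C numbered 42, from 1 with median centring to 65 with array weights, and those of M against AhR 34, from 0 to 63. In the other comparisons they numbered 2 (0 to 3) in 0.5M against C, 1 (0 to 1) in AhR against C, 2 (0 to 7) in M against 0.5M and 3 (0 to 5) in 0.5M against AhR.

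The replicate numbers were not taken to pair the samples. Deviations of same-numbered arrays correlated at -0.23 to 0.46, and at -0.41 to 0.19 with the slide removed, which cannot exclude a pairing. Calls with the replicate number as a block reached 3 in 0.5M against C, 7 in M against 0.5M and 5 in 0.5M against AhR. In the main fit they were 2, 2 and 3. With the replicate number as a block, Cyp2c7 differed between M and C by 1.91 as before, and Cyp2c6v1 gave 1 call in 0.5M against C. That call was also made without C 3 or 0.5M 4 (0 to 1 calls with each array left out).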

Other observations

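After removal of slide means, Cyp2c22 was most like Foxo4 (r = 0.84, rho = 0.82), Ubap1 (r = 0.83, rho = 0.85) and S100a13 (r = 0.81, rho = 0.78) over the 16 arrays, and Cyp2c23 most like Yipf5 (r = 0.87, rho = 0.94), Csnk1d (r = 0.86, rho = 0.84) and Wdr53 (r = 0.85, rho = 0.86). With the group removed too, Cyp2c22 was most like Ltbp3 (r = 0.94, rho = 0.88), Exoc6b (r = 0.91, rho = 0.91) and Zfp672 (r = 0.89, rho = 0.86). Cyp2c23 was most like Apoo (r = 0.89, rho = 0.78), Ns5atp4 (r = 0.88, rho = 0.68) and Emc2 (r = 0.87, rho = 0.79). With only the slide removed, Cyp2c22 and Cyp2c23 ran against each other (r = -0.58, and -0.76 without the 2 arrays farthest from the median of Cyp2c23). With the group removed too their r was -0.29, and -0.57 to -0.03 under 6 other settings of processing. Cyp2c13 followed Hsd3b5, a male-biased steroid dehydrogenase of rat liver, at r = 0.96 (rho = 0.94, group and slide removed), and at 0.86 to 0.96 under 6 other settings of processing. Hsd3b5 was dim, with background-subtracted Cy5 of 25.5 in M 1, 27.25 in AhR 1 and 205 in C 3. The part of dim signal in this correlation was not tested. For Cyp2c12 and Sult2a1 the 6 other settings gave 0.88 to 0.91. For Cyp2c7 and Cyp2c23 they gave -0.10 to 0.78. These are descriptions of arrays that share RNA pools and labelling.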
